A study of Mus musculus with 4 samples.

Results

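The 4 caseins Csn1s1, Csn1s2a, Csn2 and Csn3, together with Lalba, Btn1a1, Mfge8 and Wap, were followed across the epithelial cell classes of the mouse mammary gland. These 8 genes were chosen by name as classical milk proteins, out of 31053 genes counted. The data are 4 single-cell 3′ RNA libraries of mammary epithelium from FVB mice, 1 mouse for each library. The study's question was what loss of the transcription factor gene Tfap2c does to mammary stem cells. All 4 mice carried Tfap2c fl/fl and Krt5-CreERT2, so that 4-hydroxytamoxifen (4OHT) activates Cre in cells that use the Krt5 promoter. Injections began at postnatal week 4, of corn oil (the vehicle) in 2 mice and of 4OHT in the other 2, and the glands were taken at week 9. The controls thus carried the floxed alleles and the Cre as well, and their reproductive state is not given in the sources used here.

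Caseins are the main proteins of milk. The calcium-sensitive caseins, encoded by Csn1s1, Csn1s2a and Csn2, bind calcium phosphate and are packed into micelles that kappa-casein, encoded by Csn3, coats and keeps in suspension. Prolactin acts through JAK2 and STAT5 to switch on these genes in luminal alveolar cells, with ELF5 as a partner transcription factor. Lalba encodes alpha-lactalbumin, the regulatory subunit of lactose synthase, and Wap encodes whey acidic protein. Btn1a1 encodes butyrophilin of the milk fat globule membrane, and Mfge8 encodes lactadherin, a protein of the same membrane that also bridges dying cells to phagocytes. Outside lactation, low casein RNA is known from luminal progenitor cells.

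Cells with at least 1000 UMIs were sorted into classes by their raw UMI counts. A UMI is a molecular tag, counted once per captured RNA molecule. Basal cells had at least 5 UMIs of Krt5, Krt14, Krt17 and Acta2 together and more than 3 times the sum of Krt8, Krt18 and Krt19, and luminal cells were the reverse. Luminal cells were called hormone-sensing when Ly6d, Fxyd2 and Gpx3 together reached 3 UMIs and exceeded Wfdc18 and Ltf, and progenitor otherwise. None of the 8 milk protein genes enters this rule. It gave between 1421 and 2178 basal cells, between 1119 and 1763 progenitor cells and between 163 and 461 hormone-sensing cells per library. Markers that the rule did not use followed the names. The progenitor markers Kit, Elf5, Aldh1a3, Cd14 and Plet1 summed to between 1525 and 2155 CPM (UMIs of a gene scaled to a common total per class and library) in progenitor cells and to at most 328 CPM in the other epithelial classes.

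The libraries held between 17351950 and 22017878 UMIs in 3546 to 5545 barcodes, and any 2 libraries shared between 18 and 36 barcodes. Tfap2c, the targeted gene, was counted in basal cells at 389 and 285 CPM in the corn oil libraries and at 285 and 325 CPM in the 4OHT libraries. Those groups overlap, so the counts do not separate the labels. A 3′ count can still include a transcript that lost an internal exon, and which exons are floxed is not given in the sources used here. The share of barcodes that met no class rule was 15.9% and 15.6% with corn oil and 23.9% and 22.1% with 4OHT, so the classes took up a smaller part of the 4OHT libraries.

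The caseins lie together on chromosome 5 (GRCm38, GENCODE M21 annotation). Csn1s1 spans positions 87666208 to 87682578 on the plus strand and Csn2 positions 87692624 to 87699630 on the minus strand. Csn1s2a spans 87774567 to 87788797 and Csn3 87925579 to 87932665, both on the plus strand. The 266 kb from the start of Csn1s1 to the end of Csn3 hold 9 counted genes, of which Prr27, Gm42794 and BC037156 had no UMI in any cell of any library. Csn1s2b, a further calcium-sensitive casein gene in this stretch, had 121 UMIs over all cells, against 7856 for Csn2, 8182 for Csn1s2a, 18482 for Csn1s1 and 103411 for Csn3. Odam, which encodes an enamel-associated protein, had 5 UMIs. The other members lie alone, Lalba on chromosome 15 (98480400 to 98482721), Btn1a1 on chromosome 13 (23456992 to 23465901), Mfge8 on chromosome 7 (79133768 to 79149060) and Wap on chromosome 11 (6635482 to 6638637), all on the minus strand.

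RefSeq promoter windows, from 250 bases before to 50 bases after the annotated start, were at hand for 6 of the 8 genes (GRCm38.p6), all but Csn3 and Btn1a1. The 3 calcium-sensitive casein genes are shown because, as described further on, all 3 had lower counts in both 4OHT libraries and were often found in the same cells. Capitals mark TTCNNNGAA, the palindromic letters of the STAT5 motif, which read the same on both strands. The windows are chr5:87665958-87666257 on the plus strand for Csn1s1, chr5:87774200-87774499 on the plus strand for Csn1s2a and chr5:87699376-87699675 on the minus strand for Csn2.
Csn1s1: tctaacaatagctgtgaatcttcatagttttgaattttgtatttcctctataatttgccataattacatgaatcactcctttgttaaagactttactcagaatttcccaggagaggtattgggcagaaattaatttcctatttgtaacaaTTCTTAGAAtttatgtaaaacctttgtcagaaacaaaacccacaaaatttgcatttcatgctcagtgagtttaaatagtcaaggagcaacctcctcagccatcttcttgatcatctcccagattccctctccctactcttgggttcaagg
Csn1s2a: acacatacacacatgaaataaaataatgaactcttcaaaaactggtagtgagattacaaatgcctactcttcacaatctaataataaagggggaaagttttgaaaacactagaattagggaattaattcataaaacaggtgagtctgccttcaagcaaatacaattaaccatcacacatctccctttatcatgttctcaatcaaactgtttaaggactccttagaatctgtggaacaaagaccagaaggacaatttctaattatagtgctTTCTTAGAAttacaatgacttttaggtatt
Csn2: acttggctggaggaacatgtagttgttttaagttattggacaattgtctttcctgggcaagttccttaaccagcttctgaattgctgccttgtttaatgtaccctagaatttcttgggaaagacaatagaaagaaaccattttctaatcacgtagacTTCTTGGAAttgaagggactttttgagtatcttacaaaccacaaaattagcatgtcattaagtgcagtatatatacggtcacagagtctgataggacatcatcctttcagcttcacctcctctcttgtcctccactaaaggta
The match TTCTTAGAA lies at positions -100 to -92 from the start of Csn1s1, and TTCTTGGAA at -93 to -85 from the RefSeq start of Csn2. The GENCODE M21 gene begins further upstream, at 87699630 on the minus strand, so that the Csn2 match, at 87699510 to 87699518, lies inside it. In Csn1s2a the match TTCTTAGAA lies at 20 to 28 after the RefSeq start, which is 97 bases before the gene start of GENCODE M21. The same letters occur in 8.30% of 32851 promoter windows of 300 bases, and no match was found in the windows of Lalba, Mfge8 and Wap. Other motifs searched on both strands were TTGCNNAA for C/EBP, present in 10.8% of all windows, TGTTCT for the glucocorticoid receptor, in 19.0%, and TTGGCA for NF1, in 14.1%. TGTTCT occurs once, in the Csn1s2a window, TTGGCA once, in the Lalba window, and TTGCNNAA in none of the 6. These are matches of letters, not measured binding sites.

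All 8 genes were highest in progenitor cells, and Csn3 led by a wide margin. Csn3 was counted in progenitor cells at 3430 and 3271 CPM in the corn oil libraries and at 1936 and 4708 CPM in the 4OHT libraries. The mean over all 4 libraries was 3336 ± 1134 CPM (SD, n = 4), against 78.3 ± 30.0 CPM in basal cells and 265 ± 175 CPM in hormone-sensing cells. Because 3′ tags are counted once per molecule, these levels need no scaling by gene length. Mfge8 stood at 857 ± 185 CPM in progenitor cells. Csn1s1 stood at 605 ± 574 CPM, Csn1s2a at 281 ± 269 CPM and Csn2 at 275 ± 240 CPM, with spreads between libraries close to the means. In every library Csn1s1 was above Csn2, while Csn1s2a lay above Csn2 in corn oil replicate 1 and 4OHT replicate 2 and below it in corn oil replicate 2. Lalba (107 ± 54.3 CPM) and Btn1a1 (77.8 ± 51.0 CPM) overlapped each other in range, and Wap was lowest at 5.02 ± 5.08 CPM. In each library the progenitor class held most of the UMIs of each member, from 66.7% for Mfge8 in corn oil replicate 2 to 100% for Wap in corn oil replicate 1 and 4OHT replicate 1.

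**Figure D1:**
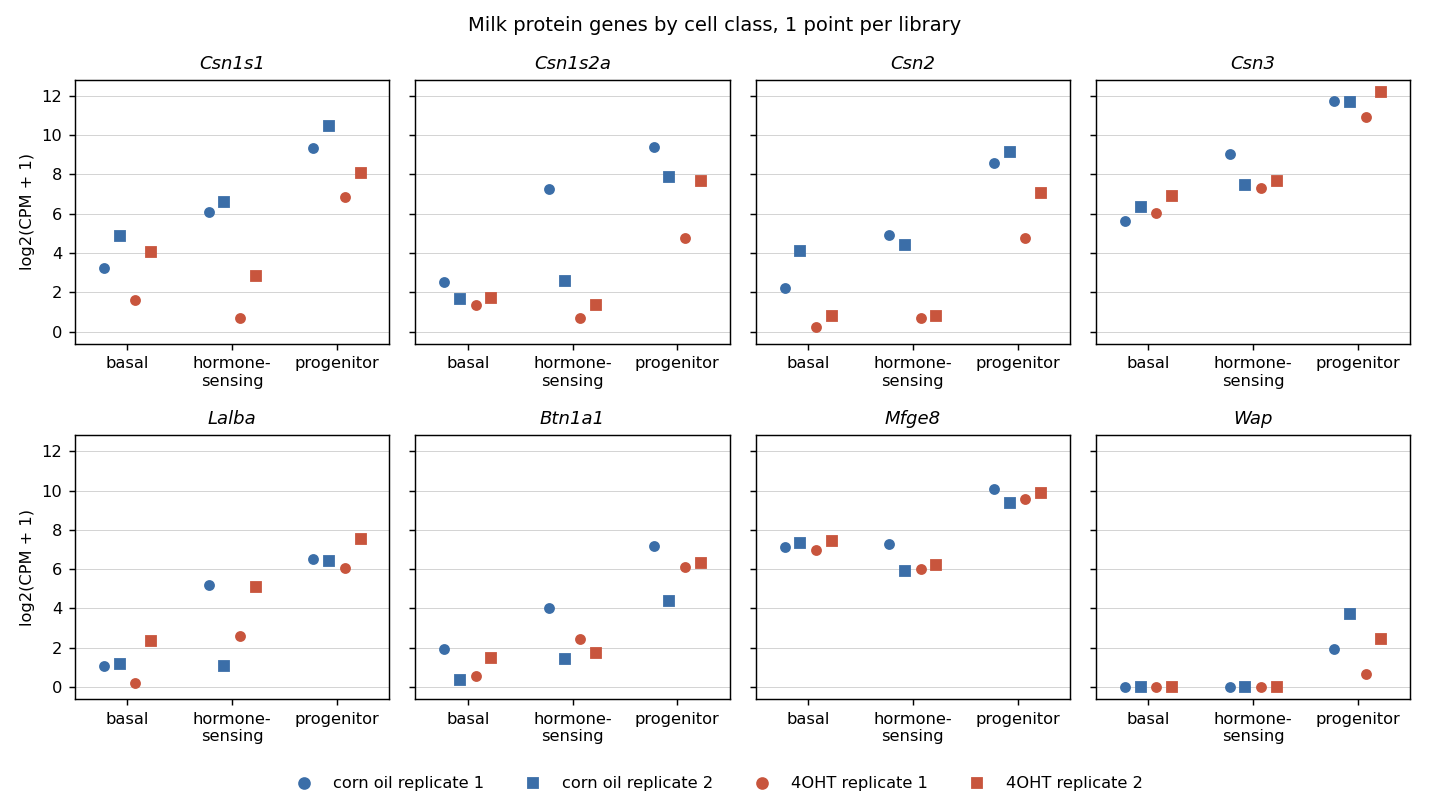
Level of each milk protein gene in basal, hormone-sensing and progenitor cells, as log2(CPM + 1), with 1 point per library (blue corn oil, red 4OHT; circles replicate 1, squares replicate 2). Every library has its highest point in progenitor cells for all 8 genes, and Wap sits at 0 in both other classes.

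The differences between classes were tested on the UMI sums of 3 classes in 4 libraries with edgeR's quasi-likelihood test, with the library as a block and Benjamini-Hochberg adjustment over 11154 genes. All 7 members tested were higher in progenitor than in basal cells, where 26.6% of all genes were higher. Csn1s2a showed the largest difference, a log2 fold change of 7.01 (SE 0.63, adjusted p = 9.68e-08), followed by Lalba at 6.43, Csn2 at 6.33, Btn1a1 at 6.14, Csn3 at 5.62 and Csn1s1 at 5.61. Mfge8 differed least, by 2.76 (SE 0.20, adjusted p = 8.44e-09). Against hormone-sensing cells all 7 were also higher in progenitor cells, by log2 3.03 (Lalba) to 4.97 (Csn2), where 24.7% of all genes were higher. Wap did not pass the filter on low counts. Its 125 progenitor UMIs against 0 of 27156378 basal UMIs make it at least 41.0-fold higher in progenitor cells, and 0 of 7425588 hormone-sensing UMIs make it at least 11.2-fold higher, with 3 counts over all libraries as the floor.

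Between the 2 lower classes the picture was mixed. In the same edgeR test 6 members were higher in hormone-sensing than in basal cells, where 27.7% of all genes were higher: Lalba by log2 3.41, Csn1s2a by 3.03, Btn1a1 by 1.92, Csn3 by 1.67, Csn2 by 1.36 and Csn1s1 by 1.30. Mfge8 was the exception, lower by log2 -0.86 (SE 0.20, adjusted p = 0.00168), where 32.3% of all genes were lower. For Csn3 much of the hormone-sensing count lay in few cells. In the hormone-sensing class 10 and 7 cells of the corn oil libraries and 5 and 12 cells of the 4OHT libraries had at least 10 Csn3 UMIs each. In corn oil replicate 2 and both 4OHT libraries these few cells held 65.5%, 80.2% and 73.6% of the Csn3 UMIs of the class. In a stricter class, added after the data were seen, hormone-sensing cells also needed a marker sum over 3 times the progenitor sum. There the calls for Csn3 (log2 0.87, edgeR adjusted p = 0.0637) and Csn1s1 (0.65, adjusted p = 0.302) ended. Without corn oil replicate 1, in which 126 of 211 Csn1s2a UMIs lay in 1 hormone-sensing cell, the calls for Csn1s1, Csn1s2a and Csn2 ended, with log2 fold changes of 0.62, 0.13 and 0.46.

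Free RNA in the droplets could give UMIs in cells that do not make a protein, so shares of cells were compared after thinning every cell to 2000 UMIs. Csn3 was found in 69.6%, 74.1%, 58.0% and 77.8% of progenitor cells in corn oil replicates 1 and 2 and 4OHT replicates 1 and 2. In basal cells the shares were 8.96%, 7.71%, 7.63% and 11.7%. Endothelial, fibroblast and leukocyte cells, which should lack Csn3, gave 8.06%, 9.52% and 7.81% in the 3 libraries with more than 8 such cells, and in corn oil replicate 1 none of 8, with an exact upper bound of 36.9%. The basal share was thus near that of the non-epithelial cells in those 3 libraries. Levels gave another picture. Non-epithelial cells of corn oil replicate 2 and 4OHT replicates 1 and 2 held 45, 12 and 20 Csn3 UMIs of 558006, 356011 and 324196 in all. The basal level, 80.6, 64.8 and 119 CPM, was about equal to theirs in corn oil replicate 2 and higher in both 4OHT libraries. The hormone-sensing level, 176, 155 and 203 CPM, was higher in all 3. The part of free RNA in the basal Csn3 counts was not tested. The hormone-sensing shares of 15.3%, 11.2%, 9.05% and 9.78% had exact 95% Clopper-Pearson intervals that overlapped those of the non-epithelial cells in each library. Median depths before thinning were 2828 to 5153 UMIs in basal, 4751 to 8207 UMIs in hormone-sensing and 1946 to 4638 UMIs in non-epithelial cells, and the intervals cover counting error only. Thinning left out 34 to 140 progenitor, 34 to 379 basal, 0 to 11 hormone-sensing and 0 to 66 non-epithelial cells per library as too shallow. Without thinning the Csn3 shares were 69.7% to 85.8% in progenitor and 11.8% to 21.7% in basal cells.

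Mfge8 was found in more basal cells than any casein. Its shares there after thinning were 20.7%, 25.7%, 21.0% and 24.1% in corn oil replicates 1 and 2 and 4OHT replicates 1 and 2. In hormone-sensing cells they were 15.3%, 7.08%, 11.5% and 11.1%, and the intervals did not overlap those of basal cells in 3 of the 4 libraries, all but corn oil replicate 1. Non-epithelial cells gave 12.5%, 16.9%, 12.7% and 12.5%, with wide intervals that overlapped the basal ones. Whether these cells make Mfge8 themselves was not tested, so for this gene they are not a measure of free RNA. Per Csn3 UMI there were 2.80, 2.02, 1.95 and 1.43 Mfge8 UMIs in basal cells and 0.314, 0.204, 0.386 and 0.198 in progenitor cells. In non-epithelial cells the ratio was 1.56, 2.92 and 2.25 in corn oil replicate 2 and 4OHT replicates 1 and 2. These values, from 45, 12 and 20 Csn3 UMIs, lay below the basal ratio in corn oil replicate 2 and above it with 4OHT. In hormone-sensing cells the ratio was 0.295 to 0.403. The part of free RNA in the basal Mfge8 counts was not tested. For Csn1s1 the ratio to Csn3 was 0.174 in basal and 0.187 in progenitor cells of corn oil replicate 1, 0.349 and 0.428 in corn oil replicate 2, and 0.0312 and 0.0580 in 4OHT replicate 1. In 4OHT replicate 2 it was 0.129 in basal and 0.0569 in progenitor cells, where 84 of the 101 basal Csn1s1 UMIs lay in 1 cell.

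**Figure D2:**
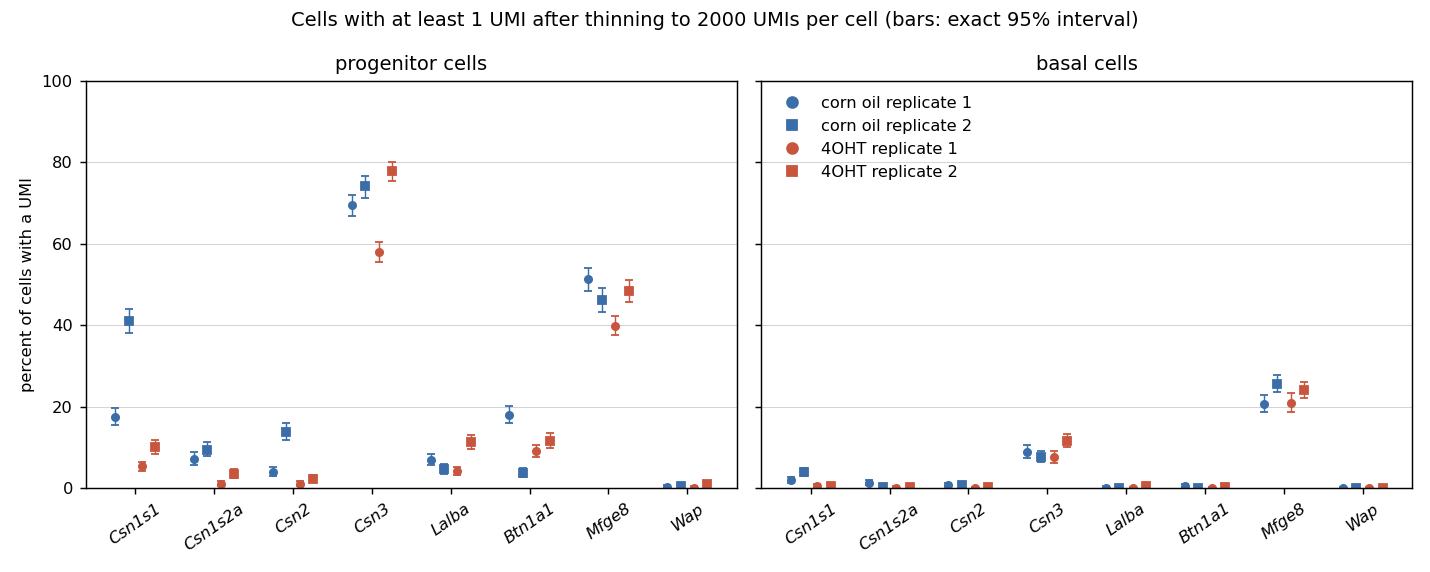
Percent of progenitor cells (left) and basal cells (right) with at least 1 UMI of each gene after thinning each cell to 2000 UMIs, 1 point per library with its exact 95% interval. Csn3 and Mfge8 are found in most or many progenitor cells, and in basal cells Mfge8 stands above the other 7 genes.

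With 4OHT the 3 calcium-sensitive caseins had lower counts in progenitor cells in both libraries, while Csn3 did not move one way. Csn1s1 stood at 641 and 1399 CPM with corn oil and at 112 and 268 CPM with 4OHT. Csn2 stood at 386 and 554 CPM with corn oil and at 26.6 and 132 CPM with 4OHT. Csn1s2a stood at 661 and 236 CPM with corn oil and at 26.6 and 201 CPM with 4OHT. For these 3 of the 8 members both 4OHT libraries lay below both corn oil libraries, and among all genes tested in progenitor cells this held for 17.4%. The groups overlapped for the other 5 members.

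None of these differences passed the test across all genes. Per class, 4OHT was compared with corn oil by edgeR's quasi-likelihood test, which called 0 of 10087 genes in progenitor cells, 0.0% of those tested. An unadjusted p below 0.05 was found for 164 genes, and 1 gene was called by DESeq2. Csn1s1 had a log2 fold change of -2.29 (SE 0.50, unadjusted p = 0.00149, adjusted p = 0.999) and Csn2 one of -2.44 (SE 0.64, unadjusted p = 0.00457, adjusted p = 0.999). For Csn1s2a it was -1.85 (SE 0.83) and for Wap -1.49 (SE 0.89), from 20 and 73 Wap UMIs with corn oil and 5 and 27 with 4OHT. The estimates for Csn3 (0.11, SE 0.42), Mfge8 (0.04, SE 0.33) and Btn1a1 (-0.09, SE 0.69) were within 1 SE of 0, and Lalba was at 0.65 (SE 0.46). The median over the 8 members was -0.79, against -0.02 over all genes tested. The call for the calcium-sensitive caseins depended on the analysis: DESeq2 called Csn1s1 (adjusted p = 0.00671), the fit without a filter on low counts called all 3, and so did the edgeR fit without 4OHT replicate 2 (adjusted p = 0.000214 for Csn1s1, 0.000113 for Csn1s2a and 6.97e-06 for Csn2). Over all alternatives the adjusted p of each of the 3 genes ranged up to 1.0, and down to 1.00e-18 for Csn1s1, 2.09e-11 for Csn1s2a and 1.37e-25 for Csn2 with the replicate number as a block.

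**Figure D3:**
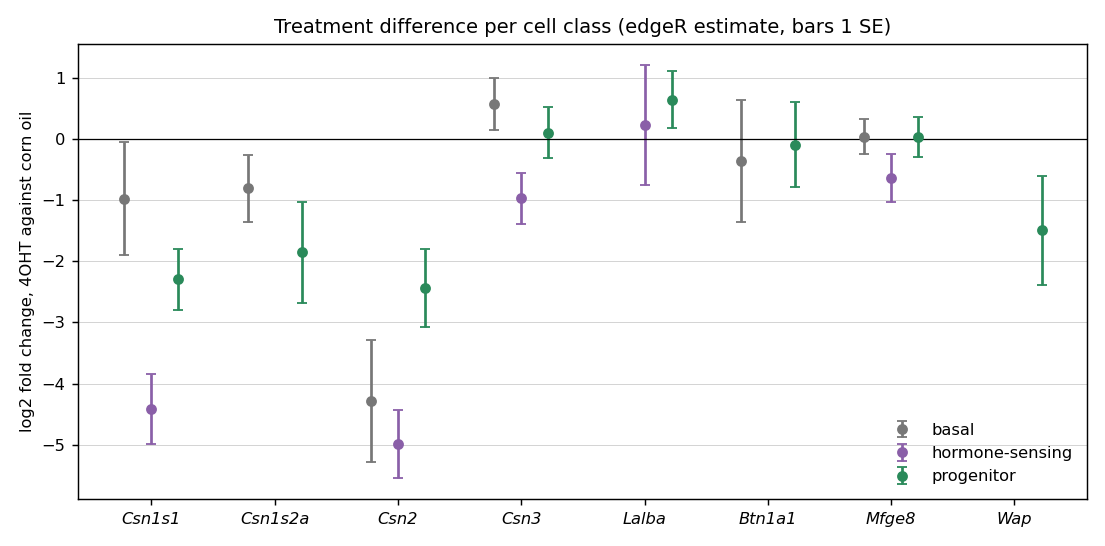
Log2 fold change of 4OHT against corn oil for each gene in basal (grey), hormone-sensing (purple) and progenitor (green) cells, as edgeR estimates with bars of 1 SE; genes under the filter on low counts have no point. Csn1s1 and Csn2 lie below 0 in all 3 classes, and Csn3, Lalba, Btn1a1 and Mfge8 lie within about 1 log2 unit of 0.

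Several features of the progenitor class also separated the 2 groups. Among all genes tested in this class, 17.4% separated with both 4OHT libraries lower. Median depth was 5278 and 4775 UMIs per cell with corn oil and 4372 and 3465 UMIs with 4OHT. The 4 basal markers of the rule, all detected, summed to 234 and 245 CPM in progenitor cells with corn oil and to 357 and 309 CPM with 4OHT. The 3 luminal keratins of the rule, all detected, summed to 16496 and 12463 CPM with corn oil and to 23655 and 16700 CPM with 4OHT. The part of these features in the result was not tested. With every cell thinned to the same 2000 UMIs, Csn1s1 was found in 17.6% and 41.1% of progenitor cells with corn oil and in 5.36% and 10.1% with 4OHT. Csn2 was found in 4.05% and 13.8% with corn oil and in 1.05% and 2.26% with 4OHT, and Csn1s2a in 7.20% and 9.49% against 1.05% and 3.50%. Without thinning Csn1s1 was found in 24.6% and 50.5% with corn oil and in 7.60% and 12.4% with 4OHT. The groups did not overlap for these 3 genes, and each exact permutation test gave p = 0.33, the smallest that 2 libraries against 2 allow. Shares for Csn3 were 71.8% ± 3.20 (SD, n = 2) with corn oil and 67.9% ± 14.0 (SD, n = 2) with 4OHT. In the sum over all cells of a library, with no class rule, Csn1s1 stood at 427 ± 263 CPM with corn oil and 75.5 ± 30.0 CPM with 4OHT (SD, n = 2 each). That edgeR fit called 0 of 12972 genes, 0.0%, and left 271 whose unadjusted p was below 0.05, whereas DESeq2 called 15, Csn1s1 and Csn2 among them. In such sums, fewer cells of a type and less RNA per cell cannot be told apart.

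The make-up of casein RNA was next compared within each library. It rests on the same counts as the levels above and is not a separate result. Csn3 made up 67.0% and 59.9% of the casein UMIs of progenitor cells with corn oil, and 92.1% and 88.7% with 4OHT. The groups did not overlap, with means of 63.5% ± 5.02 and 90.4% ± 2.43 (SD, n = 2 each), a difference of 26.9 percentage points with an exact permutation p of 0.33, again the smallest possible. Csn1s1 contributed 12.5% and 25.6% with corn oil and 5.34% and 5.05% with 4OHT. The summed casein level, by contrast, was 5118 and 5459 CPM with corn oil and 2101 and 5309 CPM with 4OHT, so 4OHT replicate 2 lay close to the corn oil libraries. Leaving out any 1 library kept the difference in the Csn3 share between 23.4 and 30.5 percentage points. In basal cells the share was 74.2% and 63.5% with corn oil and 94.6% and 86.6% with 4OHT. In hormone-sensing cells it was 68.0% and 59.6% against 98.8% and 96.0%. In cells that met no class rule it was 95.1% and 66.1% with corn oil and 82.1% and 88.8% with 4OHT, and there the groups overlapped.

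**Figure D4:**
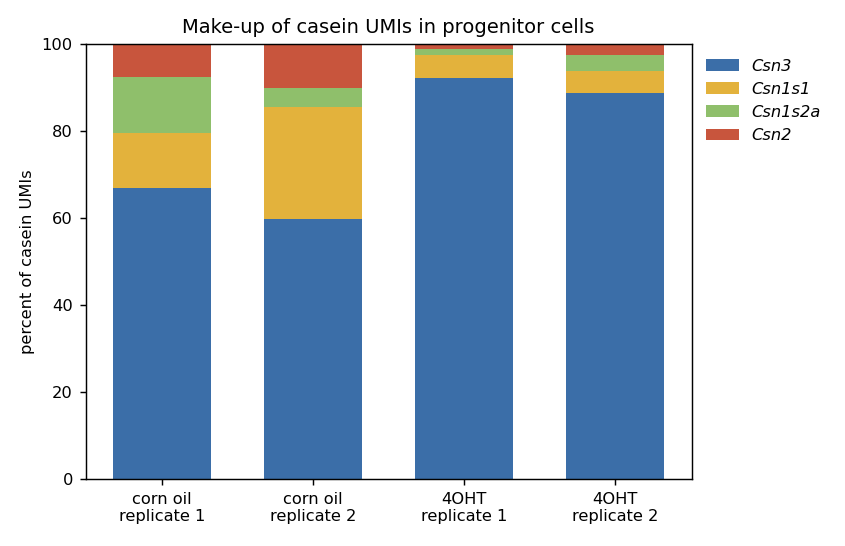
Make-up of the casein UMIs of progenitor cells in each of the 4 libraries, as percent of the sum of Csn3, Csn1s1, Csn1s2a and Csn2. Csn3 fills 67.0% and 59.9% of the bars of the corn oil libraries and 92.1% and 88.7% of those of the 4OHT libraries.

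In hormone-sensing cells Csn2 was the 1 gene of 7686 called by edgeR, 0.013% of those tested, and 242 genes had an unadjusted p below 0.05. Its counts were 40 and 36 UMIs with corn oil and 1 and 2 UMIs with 4OHT, a log2 fold change of -4.99 (SE 0.56, adjusted p = 0.0350). In corn oil replicate 1, however, 36 of the 40 UMIs lay in 1 cell, and in corn oil replicate 2, 17 of the 36. Without the cell with most casein UMIs in each library, an alternative chosen after the data were seen, Csn2 no longer passed the filter on low counts and edgeR called 0 genes. The call also ended in classes cut with a 10-fold keratin dominance (edgeR adjusted p = 0.0564). Under the other alternatives run it was called, with an adjusted p down to 2.80e-12. Csn1s1 stood at 66.8 and 93.9 CPM with corn oil and at 0.62 and 6.08 CPM with 4OHT (log2 -4.42, SE 0.58), and missed the edgeR threshold with an adjusted p of 0.0708. Over all alternatives run, the log2 fold change of Csn1s1 in this class stayed negative, from -6.925 to -3.73. Its adjusted p by edgeR or DESeq2 ranged up to 0.319, so its call depended on the analysis. Lalba stood at 35.2 and 1.11 CPM with corn oil and at 4.99 and 33.4 CPM with 4OHT, and without corn oil replicate 1 it was called higher with 4OHT (log2 4.02, edgeR adjusted p = 0.000441). Csn1s1 and Csn2, 2 of the 5 members tested, had groups that did not overlap, against 13.7% of all genes. The 5 fibroblast markers summed to 226 and 56.1 CPM in this class with corn oil and to 1296 and 231 CPM with 4OHT, almost all of it Dcn, with Col1a1 at no more than 2 UMIs in any library and Lum at 0 in 3 of the 4; their part in the result was not tested. The 2 progenitor markers of the class rule, Wfdc18 and Ltf, both detected, summed to 154 and 140 CPM in hormone-sensing cells with corn oil and to 73.0 and 62.7 CPM with 4OHT, without overlap. The rule itself caps these 2 genes in every hormone-sensing cell, so their sum is not a free measure of progenitor RNA. The 5 further progenitor markers summed to 234 and 269 CPM with corn oil and to 328 and 203 CPM with 4OHT, and overlapped. The part of progenitor RNA in the differences of Csn2 and Csn1s1 was not tested.

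Csn2 counts in basal cells were also lower with 4OHT, without a call. Csn2 stood at 3.71 and 16.1 CPM with corn oil and at 0.17 and 0.76 CPM with 4OHT, that is 30 and 105 UMIs against 1 and 5, and 63 of the 105 lay in 1 cell of corn oil replicate 2. The log2 fold change was -4.28 (SE 1.00, adjusted p = 0.914) in an edgeR fit that called 0 of 10788 genes, 0.0%. An unadjusted p below 0.05 was found for 465 genes, and DESeq2 called 38, Csn2 among them. It was the 1 basal member of 6 tested whose groups did not overlap, against 17.6% of all genes. In droplets with fewer than 1000 UMIs Csn2 stood at 72.5 and 495 CPM with corn oil and at 0 and 10.8 CPM with 4OHT, from 2, 33, 0 and 1 UMIs. In non-epithelial cells it had 1 and 5 UMIs with corn oil and 1 and 0 with 4OHT. The part of free RNA in the basal difference was not tested. Csn3 was at 48.9 and 80.6 CPM with corn oil and at 64.8 and 119 CPM with 4OHT, and Mfge8 at 137 and 163 CPM against 126 and 170 CPM, so both overlapped. Whether the treatment difference itself differed between classes was tested with an interaction term. EdgeR called 0 of 11154 genes (0.0%) for progenitor against basal cells and 0 (0.0%) for progenitor against hormone-sensing cells, while 461 and 442 had an unadjusted p below 0.05, and DESeq2 called 0 and 2. For Csn1s1 the interaction was log2 2.48 (SE 0.56, unadjusted p = 0.000512, edgeR adjusted p = 0.774) for progenitor against hormone-sensing cells.

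Within the progenitor class casein RNA was concentrated in a minority of cells. After thinning, the median progenitor cell had 2, 4, 1 and 4 casein UMIs in corn oil replicates 1 and 2 and 4OHT replicates 1 and 2, and the richest cell 218, 195, 104 and 207. The top 10% of cells held 54.8%, 51.0%, 59.2% and 44.4% of the casein UMIs. No casein UMI was found in 25.3%, 20.1%, 40.6% and 21.3% of the cells, and all 4 caseins together in 2.27%, 5.07%, 0.185% and 0.778%. Before thinning, 30, 74, 7 and 10 progenitor cells with at least 10 Csn2 UMIs held 96.7%, 88.2%, 80.2% and 90.4% of them. Cells with at least 10 Lalba UMIs held 55.9% to 66.6% of the Lalba UMIs. Of the 73 Wap UMIs in corn oil replicate 2, 46 lay in 1 cell.

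The calcium-sensitive caseins were found in the same progenitor cells more often than the product of their shares gives. Cells with both Csn1s2a and Csn2 numbered 30 against 3.60 from that product in corn oil replicate 1, 58 against 14.2 in corn oil replicate 2, 4 against 0.178 in 4OHT replicate 1 and 11 against 1.02 in 4OHT replicate 2. In the corn oil libraries 78.0% and 93.3% of cells with Csn2 also had Csn1s1, and with 4OHT 47.1% and 55.2%. Csn1s1 itself was found in 29.3% of progenitor cells with corn oil and 7.74% with 4OHT (means of 2 libraries). The lower percentages with 4OHT therefore do not show weaker co-detection, and they rest on few cells, since 1.65% had Csn2 on average. Csn2 and Lalba were found together 6.32, 2.89, 5.62 and 2.44 times as often as the product gives. For pairs with Csn3 the ratio cannot be large, since Csn3 is in most cells, and it ranged from 1.10 to 1.72. Over single cells the correlation of log-scaled counts of Csn1s2a with Csn2 was 0.68, 0.62, 0.48 and 0.46 in corn oil replicates 1 and 2 and 4OHT replicates 1 and 2. For Csn3 with Mfge8 it was 0.57, 0.45, 0.57 and 0.52, and for Csn3 with Csn1s1 0.23, 0.46, 0.17 and 0.20. In corn oil replicate 2 the last value was level with that of Csn1s1 with Csn1s2a, 0.45. These are descriptions of cells that share a library and differ in depth, with no test.

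**Figure D5:**
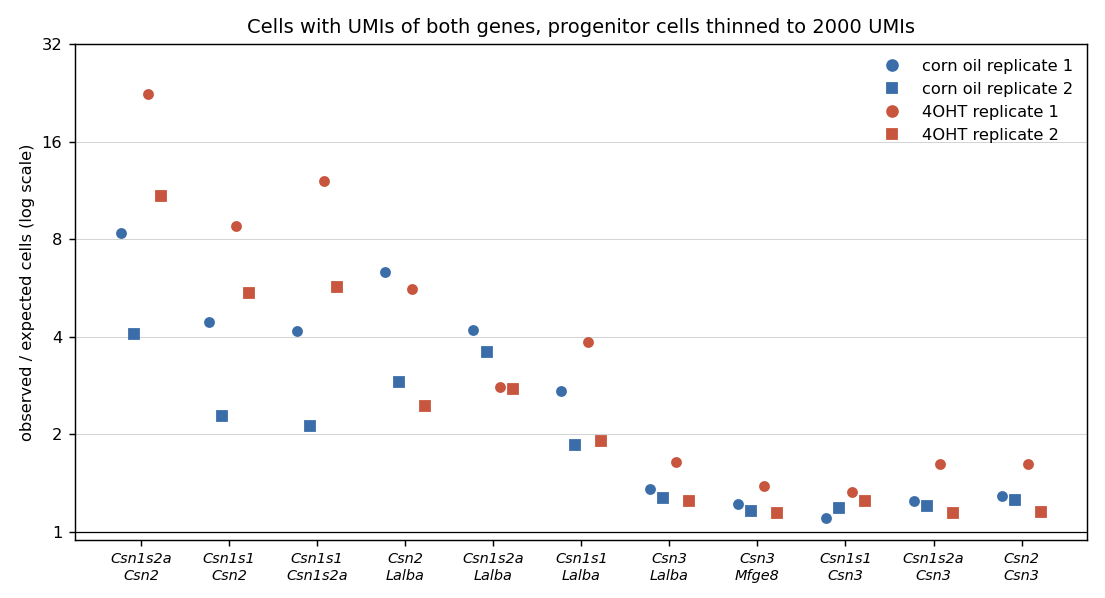
Observed over expected number of progenitor cells with UMIs of both genes of a pair (log scale, thinned to 2000 UMIs), 1 point per library; the line at 1 is the product of the 2 shares. Pairs among Csn1s1, Csn1s2a and Csn2 lie above 2 in all 4 libraries, and pairs with Csn3 lie between 1 and 2.

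The genes upstream of milk protein transcription were not all highest where the milk proteins were. Of 10 lactogenic signalling genes, 8 were higher and 1 (Socs2, log2 -1.38) lower in progenitor than in basal cells in edgeR's test, against 26.6% of all genes higher and 29.6% lower. Elf5, the luminal transcription factor, had the largest difference, log2 6.73 (SE 0.23, adjusted p = 3.87e-12), with 140 ± 30.7 CPM in progenitor cells. Erbb4, a receptor that feeds into STAT5, was at 2.72 ± 0.89 CPM in progenitor cells and at 0 UMIs in hormone-sensing cells. Prlr, the prolactin receptor, was highest in hormone-sensing cells at 513 ± 116 CPM, against 23.9 ± 14.2 CPM in progenitor cells (log2 -4.36, adjusted p = 2.22e-08). Stat5a (log2 -1.71) and Jak2 (-0.77) were also lower in progenitor than in hormone-sensing cells, where 21.6% of all genes were lower, while Stat5b (8.70 ± 1.16 CPM in progenitor cells) did not pass that test. The target gene Cish (19.4 ± 3.26 CPM) was higher in progenitor than in hormone-sensing cells, by log2 1.49. So were Cebpb, a C/EBP transcription factor gene (1015 ± 824 CPM), by 2.77 and Nr3c1, the glucocorticoid receptor, by 1.77. Cebpb stood at 2239 and 492 CPM with corn oil and at 757 and 571 CPM with 4OHT in progenitor cells. None of the 10 was called between treatments in any class by edgeR, and Elf5 stood at 180 and 115 CPM with corn oil and at 117 and 149 CPM with 4OHT in progenitor cells.

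Other milk components were read against the same background of 26.6% of genes higher and 29.6% lower in progenitor than in basal cells. All 7 tested genes of 9 for other secreted milk proteins were higher in progenitor than in basal cells, among them Lcn2, the iron-siderophore binder lipocalin, by log2 1.93, Wfdc18 by 6.05 and Spp1, osteopontin, by 5.65. Wfdc18 and Ltf, both among these 7, belong to the class rule, which places luminal cells rich in them in the progenitor class. Their differences from hormone-sensing and from basal cells are therefore not findings. Of the milk fat globule genes 4 of 5 tested were higher than in basal cells: Plin2, a lipid droplet coat protein, by log2 2.88, Muc1, a membrane mucin, by 5.50, Xdh, xanthine oxidoreductase, by 2.33, and Cidea, a lipid droplet protein, by 4.18, while Lpl (3.76 ± 1.08 CPM in progenitor cells) did not pass. Lactose synthesis was split: B4galt1, the catalytic subunit of lactose synthase, and Ugp2 were higher in progenitor than in basal cells (log2 1.69 and 0.83), whereas Slc2a1, the glucose transporter, and Slc35a2 were lower (-2.22 and -0.73). Of the genes for casein processing and calcium, the Golgi calcium pump gene Atp2c1 was higher than in basal cells (log2 0.91), Fam20c, the casein kinase, stood at 1.35 ± 1.06 CPM in progenitor cells without passing, and Atp2b2, the calcium pump of lactating cells, had 0 UMIs in all 3 classes. None of these lists held a gene called between treatments by edgeR in any class.

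Across the 12 sums of 3 classes in 4 libraries, the genes outside the list whose level followed the summed caseins most closely were C530043A13Rik (Pearson r = 0.979 on log2(CPM + 1)), Trim46 (0.973), Trf (0.971), Fcgbp (0.965) and 3110079O15Rik (0.961). The 12 sums share libraries and class differences, so these values describe the class pattern. Within progenitor cells, among 2505 genes found in at least 10% of cells of every library, Trf, the iron carrier transferrin, had the highest mean correlation with the caseins over cells (0.570, between 0.553 and 0.607 in the 4 libraries). Itm2b (0.532), Cst3 (0.503), Fxyd3 (0.494), Mgst1 (0.489), Lcn2 (0.450), Igfbp5 (0.431) and Spp1 (0.430) followed. The casein level itself correlated with the total UMIs of a cell at 0.165, 0.0817, 0.0395 and 0.00697 in corn oil replicates 1 and 2 and 4OHT replicates 1 and 2.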

How the data were processed

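The authors deposited UMI counts, not normalized, for each gene in each barcode of 4 mouse libraries. Cell Ranger 3.0.1 and mm10 stand in the submitters' processing notes. Strand and intron settings are not given in the sources used here. Genes were taken by symbol from the deposited feature lists. Class sums were tested with edgeR 4.0.16 in R 4.3.3 (TMM, filterByExpr, quasi-likelihood F-test, adjusted p under 0.05). CPM was computed per library and class. The test code was tested on simulated data. Cells were thinned with numpy 2.4.6, and 95% intervals were exact. The floor of 3 counts for a gene without UMIs is an approximate limit. Scrublet in scanpy 1.11.5 marked at most 0.150% of cells, a failed threshold, so no doublets were removed in the main analysis. DESeq2 1.42.0 and the other alternatives are described at the end. The replicate numbers are not stated to mark pairs. The text names all 8 members, the whole signalling and casein processing lists, up to 3 genes by level of the other lists, and the genes most correlated with the caseins; the genes of the casein cluster, of the milk fat and lactose lists beyond that rule and of marker lists were added after their values were seen. Members and lists were chosen with earlier results of these data known.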

Additional observations from a re-analysis of the deposited data

How the results depend on the processing

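Of 308 recomputed class differences of single members, 294 kept their direction and their side of the threshold and 14 lost the call, all in hormone-sensing against basal cells; the cause was not tested. In that comparison 4 members were called by DESeq2 and 4 without the library block, and 4 to 7 with 1 library left out. Of 362 recomputed treatment differences, 27 reversed, none of them called. Leaving out 1 library leaves a lone sample in its group, assumed to vary like the other group. Counts were few for Wap in all classes, and outside progenitor cells for Csn1s2a, Csn2, Lalba and Btn1a1.

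Counts of members called between treatments were as follows. In basal cells edgeR called 0, against 1 without the filter on low counts, 1 by DESeq2, 1 with the replicate number as a block, and 0 to 1 with 1 library left out. In progenitor cells it called 0, against 3 without the filter, 1 by DESeq2, 1 with a 10-fold keratin dominance, 3 with the replicate block, and 0 to 3 with 1 library left out. In hormone-sensing cells it called 1, against 3 without the filter, 0 with the 10-fold dominance, 2 without high Scrublet scores, 0 without the cell with most casein UMIs (chosen after seeing the data), 2 with the replicate block, and 2 to 4 with 1 library left out. Over all cells DESeq2 called 2. The interaction for progenitor against hormone-sensing cells called 4 members without the filter.

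Counts over all genes moved as well. In basal cells 93 genes were called without the filter, 38 by DESeq2, 167 with the replicate block and 17 to 127 with 1 library left out. In progenitor cells the counts were 42, 1, 51 and 0 to 15, and 1 with the 10-fold dominance. In hormone-sensing cells they were 67, 7, 25 and 9 to 53, with 0 under the 10-fold dominance, 2 without high Scrublet scores, 0 without the cell with most casein UMIs and 2 with a clearer hormone-sensing class, an alternative also chosen after seeing the data. Over all cells DESeq2 called 15. The interactions gave 53 and 53 without the filter, 1 and 1 under the 10-fold dominance, 2 by DESeq2 for progenitor against hormone-sensing cells, and 0 to 6 (against basal) and 0 to 5 (against hormone-sensing) with 1 library left out. Whether same-numbered libraries share a batch or form a pair is not given in the sources used here. Their deviations correlated at 0.57 in basal, 0.33 in progenitor and 0.21 in hormone-sensing cells over genes. Progenitor cells were 36.0% and 36.7% of barcodes in the libraries numbered 1 and 25.9% and 25.7% in those numbered 2. A shared batch was not tested, and the main fits without a block do not account for one.

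Log2 fold changes that reversed with 1 library left out ranged, in basal cells, from -3.24 to 0.23 for Csn1s1, from -0.0572 to 1.07 for Csn3, from -1.66 to 1.91 for Btn1a1 and from -0.30 to 0.32 for Mfge8. In progenitor cells the ranges were -0.76 to 0.65 for Csn3, -0.38 to 1.25 for Lalba, -0.90 to 2.01 for Btn1a1 and -0.29 to 0.48 for Mfge8. In hormone-sensing cells they were -1.79 to 4.02 for Lalba and -1.12 to 0.13 for Mfge8. Over all cells they were -0.72 to 0.34 for Csn3, -0.36 to 1.11 for Lalba, -0.85 to 1.95 for Btn1a1, -0.22 to 0.21 for Mfge8 and -3.53 to 0.22 for Wap. With the replicate block, Csn3 (-0.0580) and Btn1a1 (0.47) reversed in progenitor cells, and Btn1a1 (0.45) over all cells. Mfge8 reversed to -0.00649 in progenitor cells of 10-fold dominance, and Lalba in hormone-sensing cells to -0.83 without the cell with most casein UMIs and to -0.36 in the clearer class.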

Other observations

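Within progenitor cells the genes that ran lowest against the caseins over cells were Ero1l, an oxidoreductase of the endoplasmic reticulum (mean r = -0.383 over the 4 libraries), Mif (-0.338) and the glycolytic enzyme gene Aldoa (-0.337). They were named after their values were seen. The correlations were negative in all 4 libraries for each of them, for Ero1l between -0.258 and -0.449.

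Droplets with fewer than 1000 UMIs, which belong to no class, held casein UMIs at 871 and 2817 CPM in the corn oil libraries and at 417 and 875 CPM in the 4OHT libraries. Cells that met no class rule held casein UMIs at 596 and 2883 CPM with corn oil and at 411 and 562 CPM with 4OHT.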
